A study of Mus musculus with 6 samples.

Results

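The calpain system comprises calcium-activated cysteine proteases and calpastatin, their inhibitor protein, and 8 of its genes are described here: Capn1, Capn2, Capn3, Capn5, Capn6, Capn7, Capn10 and Cast. A probe was assigned to a gene when the array's annotation column listed that gene's symbol with a distance to its start. This gave 243 of 474380 probes on the arrays and 8 of 16806 annotated genes, with between 22 and 43 probes for each of the 8 genes. The array also listed a neighbouring gene for some of these probes: Ganc for 8 probes of Capn3, Rnpepl1 for 8 of Capn10 and Omp for 1 of Capn5. The genes belong together by protein family, but the family was chosen by the TEAD4 enrichment of Capn2 over input and over the control in these same samples. The values below are therefore a description and carry no test.

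Calpains cut their substrate proteins at a limited number of sites when intracellular calcium rises. In muscle they are known for trimming cytoskeletal and membrane-linked proteins during myoblast migration, fusion and sarcomere turnover, and calpastatin blocks the conventional calpains. TEAD4 is a DNA-binding factor of the TEAD family, which works with the coactivators YAP and TAZ and binds the MCAT motif found at many muscle genes.

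The arrays measured chromatin immunoprecipitation at promoters of C2C12 cells, a mouse myoblast line that was taken through 5 days in 2% horse serum to form myotubes. One population carried a retrovirus for TEAD4 with a Flag-HA tag (2 samples, which the labels call duplicates), and the other carried the empty retrovirus (1 control sample). Both were selected with puromycin, fixed in 0.4% formaldehyde for 10 min and precipitated with an anti-Flag antibody. The antibody is directed at the tag, so the arrays read retrovirally expressed TEAD4. Precipitated (IP) DNA in Cy5 and input DNA in Cy3 shared each array, and every sample went onto both of 2 array designs, which makes 6 arrays. Whether the duplicates were grown separately is not stated by the labels, so their spread may be purely technical.

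Values are log2 of IP over input with each array's median set to 0, averaged over windows. Before that step the median log10 ratio was -0.1914 and -0.1658 on the control's 2 arrays and -0.0053 to 0.0028 on the TEAD4 arrays. Centring thus raised every control ratio and left the TEAD4 ratios nearly unchanged. Folds over input given for the control are therefore relative to its arrays' medians and larger than the uncentred ones. A window is a probe and its neighbours within 500 bp on either side, with at least 3 probes. The spread (SD) between the TEAD4 samples, pooled over all 428020 windows, was 0.26, and it was 0.30 in windows of 3 probes. The control stood apart from both TEAD4 samples. Its windows had an SD of 1.04 over the array, against 0.38 and 0.40 in TEAD4 samples 1 and 2. The median ratio of IP spot signal to local background was 1.84 and 2.04 on its 2 arrays and 3.63 to 5.41 on the TEAD4 arrays. Its arrays alone were read with extended dynamic range, per the file headers, so that scanning mode and group cannot be told apart, and with 1 control sample the control has no spread of its own.

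Sequences at RefSeq starts of the genes are shown first. RefSeq (GRCm38.p6) gave 12 promoter windows, 250 bases before to 50 after a start, for 7 of the 8 genes. They were searched on both strands for CATTCC, the core of the TEAD site called MCAT, for TGANTCA, the AP-1 site, and for CANNTG, the E-box bound by myogenic factors. CATTCC was present in 1 of the 12 windows, against 14.7% of 32851 promoters. TGANTCA was present in 2 of the 12, against 7.81% of promoters, and CANNTG in 9 of the 12, against 72.3%. The 3 windows that hold CATTCC or TGANTCA, a choice made after the search, are printed with those letters, or their reverse complement, in capitals. The Capn2 window (chr1:182517561-182517860, minus strand) has TGANTCA beginning at base -183 from the start. The Capn6 window (chrX:143827363-143827662, minus strand) has it at base -58. Cast has 4 RefSeq starts, and CATTCC or its complement occurs 3 times before one of them (chr13:74734212-74734511, minus strand), at bases -245, -236 and -46.
Capn2: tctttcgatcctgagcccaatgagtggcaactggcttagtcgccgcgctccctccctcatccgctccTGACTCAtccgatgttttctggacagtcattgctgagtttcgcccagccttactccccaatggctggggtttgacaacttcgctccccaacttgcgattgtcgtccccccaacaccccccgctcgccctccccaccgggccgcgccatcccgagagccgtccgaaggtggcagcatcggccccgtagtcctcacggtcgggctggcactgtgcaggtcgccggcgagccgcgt
Capn6: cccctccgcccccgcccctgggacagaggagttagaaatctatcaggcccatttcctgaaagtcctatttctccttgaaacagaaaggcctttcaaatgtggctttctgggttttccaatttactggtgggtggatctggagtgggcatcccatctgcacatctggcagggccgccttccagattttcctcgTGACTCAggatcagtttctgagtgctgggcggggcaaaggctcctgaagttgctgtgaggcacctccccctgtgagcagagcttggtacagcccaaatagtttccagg
Cast: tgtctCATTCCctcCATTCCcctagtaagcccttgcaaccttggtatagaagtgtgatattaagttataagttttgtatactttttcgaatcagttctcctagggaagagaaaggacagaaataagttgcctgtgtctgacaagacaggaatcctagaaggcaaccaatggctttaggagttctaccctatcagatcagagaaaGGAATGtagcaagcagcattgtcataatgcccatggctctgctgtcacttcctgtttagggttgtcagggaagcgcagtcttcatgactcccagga
The Capn2 window holds no CATTCC. It does not cover the stretches of Capn2 with TEAD4 signal described below, at 1782 to 2376 bp and -3427 to -2510 bp by the arrays' distances. The sequences of those stretches were not searched, so whether they hold CATTCC is not known. The start used by the arrays was not matched to these RefSeq starts, because the arrays' build is unknown. Whether the printed Cast window lies in a stretch that the arrays cover is therefore not known.

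Capn2, which encodes the large subunit of m-calpain (calpain-2), was the gene of this family with high TEAD4 signal. In its highest window, log2 IP/input was 2.66 in TEAD4 sample 1, 3.03 in TEAD4 sample 2 and -0.74 in the control. Both TEAD4 samples were far above input and the control was below it. The TEAD4 mean was 2.84 ± 0.26 (SD, n = 2), a 7.18-fold enrichment, and it exceeded the control by 3.58 on the log2 scale. Among the highest windows of 16501 genes the mean ranked 3, and the TEAD4 excess over the control ranked 2 when every gene was taken at its window of largest excess.

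This window lay 2376 bp downstream of the annotated start, inside the gene, on chromosome 1 from 184351798 to 184352247 in the array files' own coordinates, for which no genome build was named in the labels or headers. It rests on 3 probes and is the last one tiled at Capn2, so how far the signal runs beyond it was not measured. The 4 probes from 1782 to 2376 bp were each more than 2-fold over input in both TEAD4 samples. The probe at 1782 bp read 1.36 in sample 1, 1.68 in sample 2 and -0.30 in the control. The probe at 1980 bp read 2.39, 2.87 and -0.67 in the same order. The probe at 2119 bp was the highest of the 4 in both TEAD4 samples, at 3.03 and 3.45, and the lowest of the 4 in the control, at -1.35. The fourth, at 2376 bp, read 2.56 and 2.77 against -0.20. The IP spots of these 4 probes had a median of 16.7 and 28.3 times local background in TEAD4 samples 1 and 2 and 1.46 times in the control. All 4 were well above background in the control by the scanner's own criterion, which 94.46% and 95.66% of probes met on its 2 arrays. The 1.46 was below the medians of those arrays, 1.84 and 2.04, so the control reading here was close to background.

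A separate stretch upstream of Capn2 was also enriched. The bounds of this stretch, of the downstream one and of those below were set after the values were seen. It covered 7 probes from -3427 to -2510 bp, annotated as promoter, where the mean log2 IP/input was 1.24 in TEAD4 sample 1, 1.70 in sample 2 and 0.94 in the control. Here the control was raised as well: 3 of the 7 probes were 2-fold over input in the control, 4 in TEAD4 sample 1 and 6 in TEAD4 sample 2. The highest window of this stretch, centred at -2633 bp, was at 1.53 and 1.93 in the TEAD4 samples against 0.99 in the control, a difference of 0.74. The window centred at -2510 bp, of 4 probes, was at 1.57 and 1.74 against 0.49, a difference of 1.16. That window was 2-fold above both input and control in each TEAD4 sample. The probe at -2887 bp stood out, with 2.36 and 3.09 in the TEAD4 samples and -0.38 in the control. Between this stretch and the start, the 3 probes from -1549 to -1286 bp averaged 0.13 and -0.12 in the TEAD4 samples and -0.39 in the control.

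At the start of Capn2 the samples were ordered the other way. Over the 7 probes from -490 to 528 bp the mean was 0.53 and 0.42 in the TEAD4 samples and 2.66 in the control, in which 6 of the 7 probes were at least 2-fold over input. The control's highest window at Capn2 was centred at 358 bp, at 2.76 (6.76-fold relative to the array median), where the TEAD4 samples had 0.41 and 0.44. TEAD4 signal at Capn2 thus lay on either side of a start at which the control was higher than both TEAD4 samples. The medians over all genes were ordered the same way near the start. Over 15828 genes the mean within 1000 bp of the start had a median of 0.90 in the control and 0.12 in TEAD4. The control's highest window at Capn2 stood at percentile 75.8 of the highest control windows of all genes.

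**Figure D1:**
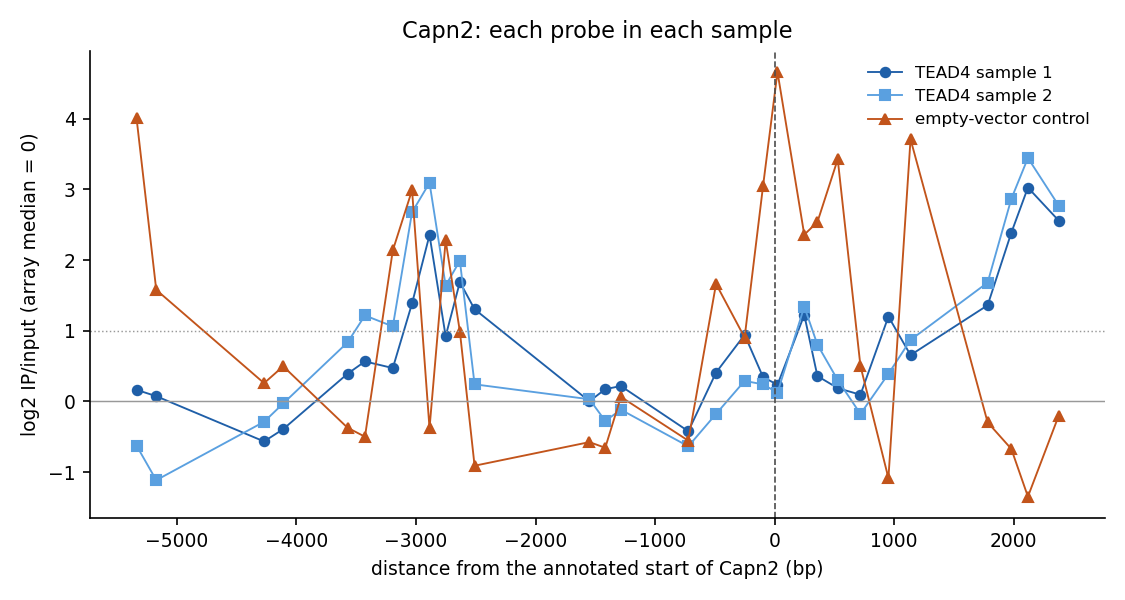
Log2 IP/input of each probe at Capn2 (vertical axis, array median at 0) against its distance in bp from the annotated start (dashed line), for TEAD4 samples 1 and 2 and the empty-vector control. Dotted line, 2-fold over input. Both TEAD4 samples are above the 2-fold line from 1782 bp to the last probe at 2376 bp, highest at 2119 bp, while the control is below 0 there, and the control peaks around the start.

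By the rule of size used here, a window that reached 2-fold over input in each TEAD4 sample, 1 of the 8 genes was called, Capn2, with 10 of its 26 windows. Of all genes 5.2% were called, a share from which nothing is read because the family was taken up for Capn2. The other 7 genes had no such window among 185. Over all genes 0.68% of 430195 gene windows were called, and neighbouring windows share probes, so nothing is read from this absence. The highest TEAD4 means of these 7 genes ran from 0.28 to 0.77 with a median of 0.44, and over all genes the median was 0.40 with the 95th percentile at 1.25. Capn2 was also the 1 gene of the 8 with a window 2-fold above both input and control, a rule met by 2.56% of all genes. This call against the control rests on windows of fewer than 5 probes. With at least 5 required, Capn2 was still 2-fold over input, in the upstream window at 1.73, but that window was only 0.74 over the control and the call was lost.

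Each window was also read in the TEAD4 sample that had not chosen it. The Capn2 window that was highest in TEAD4 sample 1 was also the one highest in sample 2, so the readings, 3.03 in sample 2 and 2.66 in sample 1, are the values already given. The family was chosen on both samples, so this reading is not independent of that choice. Capn10 and Capn6 also had 1 window highest in both samples, at 0.77 and 0.33 on average. For Capn3 the choice did not carry over: its best window of sample 2, at 0.42, read -0.60 in sample 1.

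**Figure D2:**
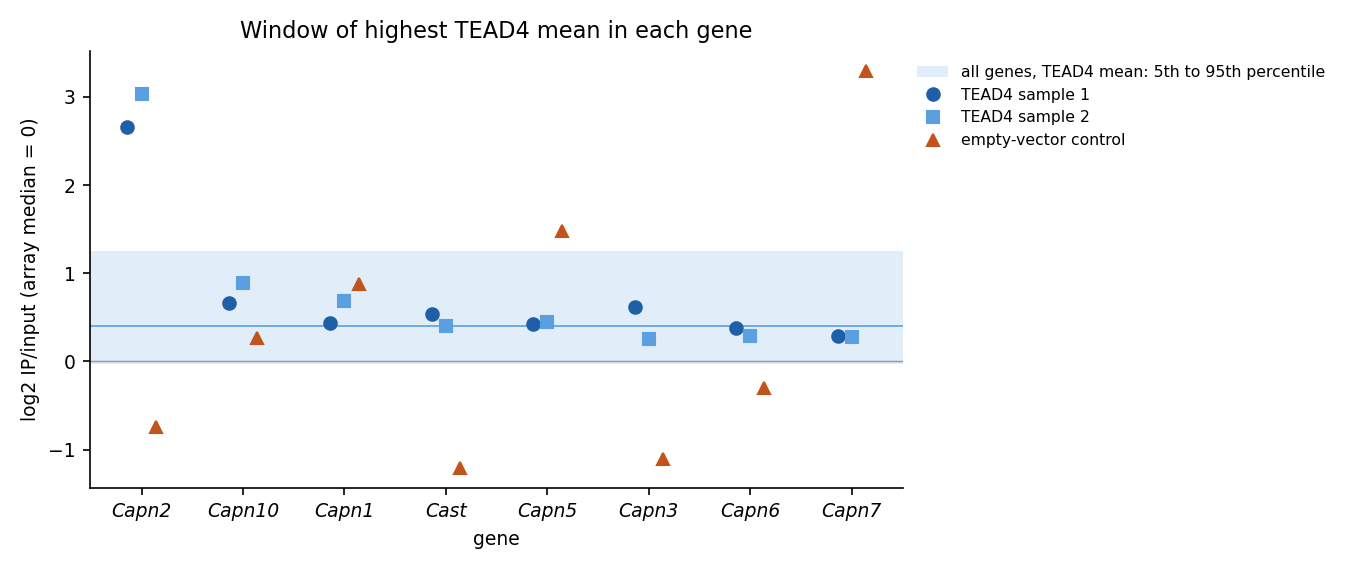
Log2 IP/input (vertical axis, array median at 0) in the window of highest TEAD4 mean of each gene, one point for each sample. The band spans the 5th to the 95th percentile of the same TEAD4 mean over all genes and the line in it is their median. Capn2 lies above the band and the other 7 genes inside it, while the control ranges from below -1 to above 3.

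Capn1, the large subunit of µ-calpain (calpain-1) and the closest functional counterpart of Capn2, showed no comparable signal. Its highest TEAD4 window, at 59 bp, was at 0.43 in sample 1, 0.69 in sample 2 and 0.88 in the control. The control lay above both TEAD4 samples there. This order depended on the scaling: the TEAD4 mean minus the control was -0.32, but 0.24 with no centring, 0.43 with normexp, 0.71 with quantile normalization and 0.54 with a common scale of the arrays. The mean of 0.56 ± 0.18 (SD, n = 2) stood at percentile 67.6 of all genes. The control's own highest window at Capn1, at -461 bp, was at 2.42, where the TEAD4 samples had 0.25 and 0.12.

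Capn3 encodes the muscle-specific calpain-3, which binds titin and whose loss causes a limb-girdle muscular dystrophy. Its highest TEAD4 window, at -980 bp, was at 0.62 and 0.26 in the TEAD4 samples and -1.11 in the control. The difference from the control was 1.55, and the control lay farther below input than either TEAD4 sample lay above it. Over its first 1000 bp on either side of the start, Capn3 was at -0.25 in TEAD4 sample 1 and 0.22 in sample 2, and -0.26 in the control. Without TEAD4 sample 1 the highest window was another one, which lay 0.36 below the control (difference -0.36). Capn3 was also the 1 gene of the 8 with no window 2-fold over input in the control, its highest being 0.86.

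Capn10, a calpain without the usual calcium-binding C-terminal domain, came second to Capn2, except with normexp, where Cast was second at 0.56 and Capn10 was at 0.43. Its window at -288 bp was at 0.66 in sample 1, 0.89 in sample 2 and 0.27 in the control. Their mean was 0.77 ± 0.16 (SD, n = 2), at percentile 81.8, which is 1.71-fold over input and short of the 2-fold rule. At 1.5-fold Capn10 and Capn2 were the 2 genes called. The same 2 were called at 2-fold with quantile normalization, where Capn10 was at 1.48, and with a common scale of the arrays, where Capn10 was at 1.31. With quantile normalization Capn10 also had a window 2-fold above both input and control. The share of all genes under these settings was not computed. The control's peak at Capn10 lay elsewhere, at 566 bp, with 2.67 against -0.02 and 0.04 in the TEAD4 samples.

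Capn5, Capn6 and Capn7 are less conventional calpains, and Capn6 lacks the catalytic cysteine of the family. Capn5 was at 0.43 and 0.45 in the TEAD4 samples and 1.48 in the control, in a window at -14 bp, and its TEAD4 mean minus the control turned from -1.04 to 0.048 with normexp and 0.20 with quantile normalization. Capn6 was at 0.38, 0.29 and -0.30 in the same order, in a window at 220 bp, and its difference of 0.63 turned to -0.26 with loess. Capn7 was at 0.29, 0.28 and 3.30, in a window at 99 bp that was the highest of the gene in TEAD4 and control alike. The TEAD4 means of these 3 genes ran from 0.28 to 0.44, a range narrower than the pooled SD between duplicates, while the control ran from -0.30 to 3.30 across the same windows. The control value at Capn7, 9.83-fold over input relative to the array median, was the highest of the 8 genes. It stood at percentile 90.8 of the highest control windows of all genes.

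Cast encodes calpastatin, the specific inhibitor of calpain-1 and calpain-2. Its highest TEAD4 window, at 1590 bp, was at 0.54 in sample 1, 0.41 in sample 2 and -1.21 in the control. TEAD4 signal was near that of a typical gene (percentile 59.0) and the difference of 1.68 came with a control below input. With windows of 1000 bp on either side the highest Cast window moved and lay below the control by 0.86 (difference -0.86). Around -826 bp the control peaked at 2.43, with 0.22 and 0.31 in the TEAD4 samples.

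Ordered by the TEAD4 mean of the highest window, the genes ran Capn2 (2.84), Capn10 (0.77), Capn1 (0.56), Cast (0.47), Capn5 (0.44), Capn3 (0.44), Capn6 (0.33) and Capn7 (0.28). Capn2 was separated from Capn10 by more than the range of the duplicates. The ranges of Capn10 and Capn1 overlapped, as did those of Capn1 and Cast, Cast and Capn5, Capn5 and Capn3, and Capn3 and Capn6. Those of Capn6 and Capn7 overlapped too, so no order among the lower 7 genes is resolved between neighbours.

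**Figure D3:**
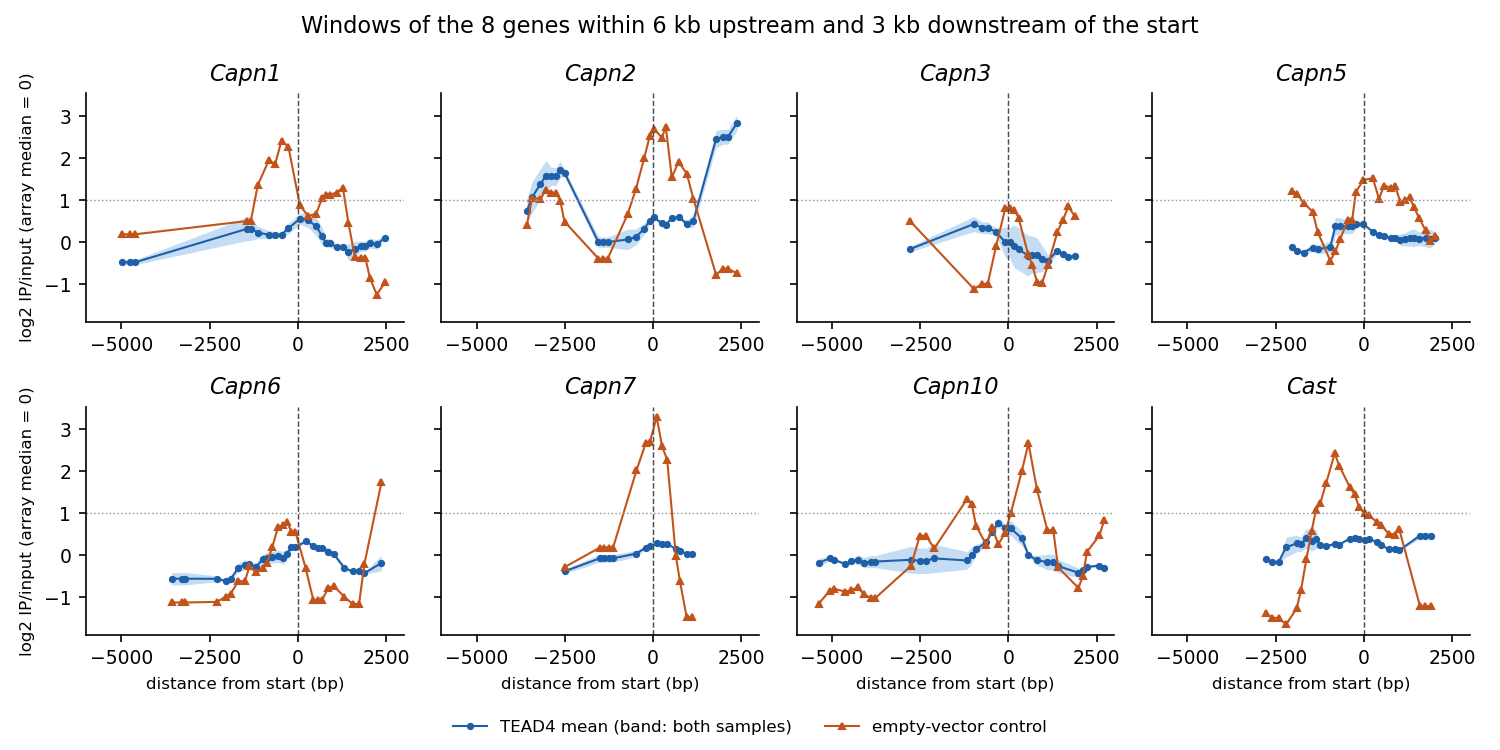
Window values (log2 IP/input, array median at 0) of the 8 genes against distance in bp from the annotated start. The TEAD4 line is the mean of the 2 samples with a band that spans them. TEAD4 rises above the dotted 2-fold line at Capn2 alone, and the control peaks within 1000 bp of the start at Capn1, Capn2, Capn5, Capn7, Capn10 and Cast.

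Against the control, 6 of the 8 genes had a window at least 2-fold higher in both TEAD4 samples, where 29.9% of all genes did, and all 8 had a window at least 2-fold lower in both, where 81.9% of all genes did. The 6 were Capn1, Capn2, Capn3, Capn6, Capn7 and Cast. At Capn2 the largest difference was 3.58, and at the other 5 it ran from 1.19 at Capn1 to 1.84 at Cast. In the windows of those 5 the TEAD4 samples ran from -0.17 to 0.62 and the control from -1.64 to -1.07, so that the control lay below input while TEAD4 lay near it. With normexp background correction, Capn2 was the 1 gene above the control. With at least 5 probes a window the genes above the control were 3, Capn1, Capn6 and Cast, and no longer included Capn2. When every array was given the same median absolute deviation they were 3, Capn2, Capn3 and Cast, and at 3-fold they were 2, Capn2 and Cast. The count also rose: with no centring all 8 genes were above the control, and at 1.5-fold Capn10 joined the 6. The share of all genes under these other settings was not computed, so the counts show only a dependence on the setting.

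In the control 7 of the 8 genes reached 2-fold over input in some window, with 85.6% of all genes doing so. With no centring Capn5 was no longer called. The highest control windows ran from 0.86 at Capn3 to 3.30 at Capn7, and 6 of the 8 lay within 1000 bp of the start. The share of all genes with their highest control window that near was not computed, so nothing is read from this count. With normexp the count was 1 gene, Capn7, so the number of genes called in the control depends on how background is treated. The share of all genes called in the control with no centring or with normexp was not computed.

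The mean over all probes within 1000 bp of a start gives a value that chooses no window. For Capn2 it was 0.46 and 0.25 in the TEAD4 samples and 1.75 in the control. For Capn10, the highest of the 8, it was 0.35 and 0.53 against 1.24. For Capn7 it was 0.21 and 0.17 against 1.53. Over the 8 genes the TEAD4 mean ran from -0.01 at Capn3 to 0.44 at Capn10, where the median over 15828 genes was 0.12 and the 95th percentile 0.67. By this measure Capn2, at 0.35 ± 0.15 (SD, n = 2) and percentile 78.7, lay below Capn10, and its high stretches were farther than 1000 bp from the start. The control was above both TEAD4 samples at Capn1, Capn2, Capn5, Capn7, Capn10 and Cast, between them at Capn6 and below them at Capn3. Over all genes the control's median was 0.90, also above the TEAD4 median of 0.12. The share of all genes with a higher control was not computed, so this order is not read as a trait of the family.

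**Figure D4:**
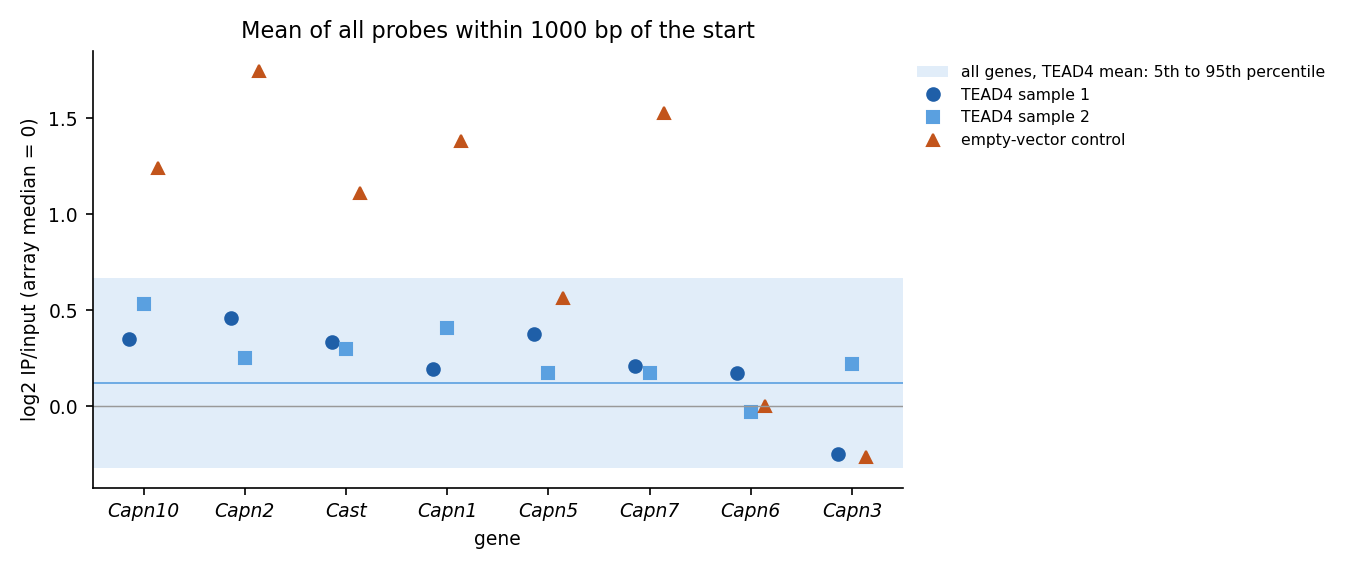
Mean log2 IP/input over all probes within 1000 bp of the annotated start of each gene (vertical axis, array median at 0), one point for each sample. The band spans the 5th to the 95th percentile of the TEAD4 mean over all genes and the line in it is their median. All 8 genes lie inside the band in the TEAD4 samples, and the control is higher at 6 of them. Over all genes the control's median, 0.90, is also above that of the TEAD4 mean, 0.12.

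The rest of the calpain family gave no gene enriched in both TEAD4 samples. Of 8 other family genes listed, 6 had windows: Capns1, Capn8, Capn9, Capn11, Capn12 and Capn13. None of these 6 passed the 2-fold rule, where 5.2% of all genes did, and the median of their highest TEAD4 means was 0.49. Capns1, the small regulatory subunit that pairs with both calpain-1 and calpain-2, was at 1.27 in TEAD4 sample 1, 0.57 in sample 2 and 2.52 in the control. Capn9 had the largest mean of the 6, from 0.57 and 1.86 with 1.49 in the control. Capns1 and Capn9 each passed 2-fold in 1 TEAD4 sample and not in the other.

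Genes for proteins that calpains are known to cut included several with TEAD4 signal. Of 31 substrate names listed from general knowledge, 25 had windows, and 6 of these (24%) passed, where 5.2% of all genes did. The 6 were Bid, Cttn, Tln1, Dysf, Vim and Ttn. The list was chosen with earlier results of these data known, so its share and median are a description only. Just 4 of the 25, Bid, Cttn, Vim and Ttn, had a window 2-fold above both input and control, a rule met by 2.56% of all genes. The median of the 25 highest TEAD4 means was 0.74, against 0.40 over all genes. The 25 genes had 809 windows, 12 to 67 each, against a median of 25 a gene over all genes. A gene with more windows has more chances of a high one, and neither the calls nor the medians were matched for this. Bid, a death-promoting Bcl2 relative, was at 1.99 and 1.75 in the TEAD4 samples and 0.72 in the control. Cttn, the actin-binding protein cortactin, was at 1.73 and 1.59 against 0.40. Tln1, which encodes the integrin adaptor talin, was at 1.12 and 1.61 against 0.25, and Dysf, the membrane repair protein dysferlin, at 1.39 and 1.26 against 0.56. At Bid, Cttn, Tln1 and Dysf the TEAD4 samples were above the control, by 0.76 to 1.26 on average. Within 2000 bp of the start, however, the difference for Dysf was -0.14. The list gave 2 genes at 3-fold and 14 at 1.5-fold. The share of all genes at those thresholds was not computed, so these counts show only how far the list depends on the threshold.

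**Figure D5:**
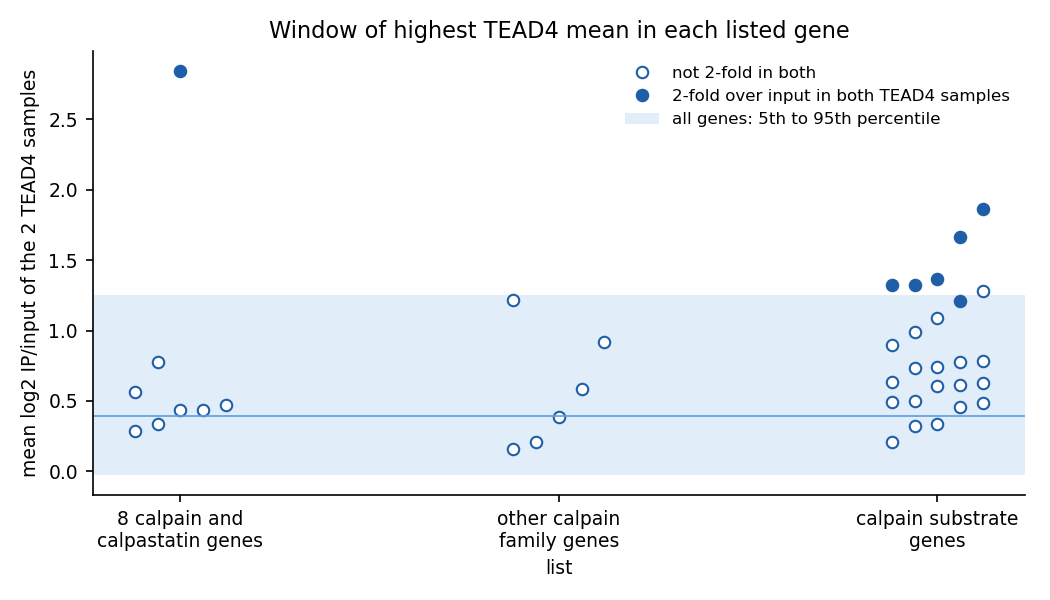
Mean log2 IP/input of the 2 TEAD4 samples (vertical axis) in the highest window of each gene, by list. Filled points were at least 2-fold over input in both TEAD4 samples: 1 of 8 calpain and calpastatin genes, 0 of 6 other family genes and 6 of 25 substrate genes. Of all genes 5.2% were, and the lists were chosen with earlier results of these data known. The band spans the 5th to the 95th percentile over all genes and the line is their median.

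The genes whose highest window was most like that of Capn2, by Euclidean distance over the 3 samples, were Ankrd2, Mxra8, Map4k4, BC048651 and Lzic, at distances of 0.55 to 0.73. Ankrd2, a stretch-responsive ankyrin repeat gene of muscle, was at 2.95 and 2.61 in the TEAD4 samples and -0.53 in the control. In Lzic, the fifth, the window lay at 2814 bp from the start, and at 2.10 and 2.77 its duplicates were less alike than those of Capn2.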

How the data were processed

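Each sample was hybridised to 2 Agilent promoter array designs, with 4 µg each of IP DNA (Cy5) and input DNA (Cy3), per the labels' protocols. Per the file headers, the deposited intensity values came out of version 9.5.3.1 of Agilent's Feature Extraction program, with spatial and multiplicative detrending. The deposited log10 ratios equal the series matrix values (largest difference 0) and log10 of IP over input. The build is not given in the sources used. The IP intensity was divided by the input intensity and taken to log2, then centred on each array's median with no loess, as the main setting. Control spots, probes without a position and probes flagged as non-uniform were left out, which kept 236180 and 235690 probes. Array symbols were matched to RefSeq symbols (13518), or synonyms (2958), and 363 were kept as given. Only annotation entries giving a symbol and a distance named a gene. An earlier run also took entries giving an accession, with 1024 of 17097 genes called over input (5.99%) where symbols alone gave 858 of 16501 (5.2%), and the symbol reading was kept after both had been seen, because it is how the genes were defined. Rules of size were used in place of tests, since the members and lists were chosen with earlier results of these data known. The text names all 8 genes, up to 4 passing genes with the largest TEAD4 mean in each other list (where none passed, the largest), and the 5 genes most like Capn2. Vim, Ttn and Capns1 were named after their values were seen. The code for window means was checked on simulated probe values with known shifts added to whole genes. That check bears on the arithmetic alone and not on the results above. Alternatives were computed in Python 3.11.15 and, for normexp (offset 50), loess and quantile, limma 3.58.1 in R 4.3.3. The number of arrays limits the precision.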

Additional observations from a re-analysis of the deposited data

How the results depend on the processing

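The TEAD4 value of the highest Capn2 window (2.84) was 3.97 with quantile normalization, 4.84 with a common scale (the same median absolute deviation on every array), 2.46 and 2.51 with windows of 250 and 1000 bp on either side, 2.51 within 2000 bp of the start and 1.73 with at least 5 probes. The value read in the sample that had not chosen the window was the same except 1.58 with at least 5 probes. Its excess over the control (3.58) was 4.21 with no centring, 2.75 with normexp, 4.44 with quantile, 5.24 with common scaling, 3.23 and 3.14 with 250 and 1000 bp, 3.14 within 2000 bp and 0.74 with at least 5 probes. Genes of the 8 over input (1) were 2, Capn2 and Capn10, with quantile, common scaling and 1.5-fold. Those above the control (6) were all 8 with no centring, 1 with normexp, 3 with common scaling, 3 with at least 5 probes and 2 at 3-fold. Those above both (1) were 2 with quantile and 0 with at least 5 probes, and those called in the control (7) were 1 with normexp. Other family genes (0) were 2 with quantile, 1 with common scaling, 1 at 1.5-fold and 1 leaving out TEAD4 sample 1 or sample 2. Substrate genes (6) were 19 with quantile, 16 with common scaling, 10 with 250 bp, 14 at 1.5-fold, 2 at 3-fold and, leaving out 1 TEAD4 sample, 9 to 10. The share of all genes called under these other settings was not computed. All these counts therefore show only how far each depends on the setting, and nothing about the genes is read from them. The median of the 8 genes near the start (0.29) was 0.21 with normexp, 0.63 with quantile, 0.51 with common scaling and, leaving out 1 TEAD4 sample, 0.24 to 0.27. Differences from the control of at least 2-fold changed sign for Capn5 (0.048 with normexp, 0.20 with quantile, -1.03 to 0.82 leaving out 1 TEAD4 sample), Capn7 (0.47 with 1000 bp), Cast (-0.86 with 1000 bp), Lzic (-1.54 within 2000 bp) and Capn3 (-0.36 without TEAD4 sample 1). Differences smaller than 2-fold also changed sign for Capn1 (0.24 with no centring, 0.43 with normexp, 0.71 with quantile, 0.54 with common scaling, 0.050 to 0.075 leaving out 1 TEAD4 sample), Capn6 (-0.26 with loess), Capn10 (-0.80 with 1000 bp, -0.27 with the median of probes), Capn9 (0.36 with no centring, 0.95 with normexp, 1.03 with quantile, 1.24 with common scaling, 0.32 with the median of probes, 0.37 without TEAD4 sample 1) and Dysf (-0.14 within 2000 bp). The cause was not tested. Where windows differ between settings, so can the window that is highest. Counting accession entries as genes, an alternative chosen after seeing the data, changed none of the counts for the 8 genes or the lists beyond 1.5 times and moved the highest control window of Capn5 to 2.05. Values of the single control sample were called unmoved within 0.2, a tolerance with no replicate behind it. No paired analysis was possible because the control has no second replicate to pair. Signal over background limits the control.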
